A study of Mus musculus with 12 samples.

Results

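The genes described here are those of the colony-stimulating factor (CSF) system that the counts could follow in mouse osteoclasts, the large cells with many nuclei that break down bone. They are 1 ligand gene, Csf1, and 5 receptor genes, Csf1r, Csf2ra, Csf2rb, Csf2rb2 and Csf3r. They were chosen by name as 6 of the 55414 gene IDs in each of the 12 libraries, and all 6 passed the filter on low counts, as 13403 genes did. The mice were males, 7 to 8 weeks old, and osteoclasts were grown from their bone marrow macrophages. All cultures received M-CSF, the protein that Csf1 encodes, at 30 ng/ml, and from day 3 also RANKL, the signal for osteoclast formation, for 4 days. The libraries form 4 groups of 3: Notch2 mutant with Hes1 deletion, wild type with Hes1 deletion, Notch2 mutant with Hes1 loxP, and wild type with Hes1 loxP. In the Hes1 loxP groups the Hes1 gene carries loxP sites, the targets of Cre recombinase. The labels name neither the Notch2 mutation nor the Cre, and they call the libraries of a group biological replicates without saying which shared an animal or culture, so the p-values measure the spread between these libraries.

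M-CSF binds Csf1r, a receptor tyrosine kinase on monocytes, macrophages and osteoclast precursors, and keeps those cells alive and dividing. Mice that lack Csf1 have few osteoclasts and dense bone. IL-34, encoded by Il34, is the other ligand of Csf1r. GM-CSF, encoded by Csf2, binds the alpha chain Csf2ra and then signals through the common beta chain Csf2rb, which also serves the receptors of IL-3 and IL-5. Mice carry a further beta chain, Csf2rb2, which pairs with the IL-3 receptor alone. Csf3r is the receptor of G-CSF, the main growth factor of neutrophils. In bone, stromal cells and osteoblasts are known as sources of M-CSF, and GM-CSF and IL-3 are known to hold early precursors away from the osteoclast fate.

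Total gene counts ran from 13832368 to 19293772 a library. Markers of osteoclasts were high everywhere: the 11 genes of that list, among them Acp5, Ctsk and Mmp9, summed to between 31513 and 50598 CPM, the reads of a gene per 1000000 gene reads of its library. Hes1 itself had few reads, with 0, 1 and 1 in the Notch2 mutant Hes1 deletion libraries and 0, 0 and 2 in the wild type Hes1 deletion libraries. It had 3, 2 and 2 reads in the Notch2 mutant Hes1 loxP libraries and 6, 11 and 6 in the wild type Hes1 loxP libraries, so the deletion groups were the lowest, at a depth too low for a test. Notch2 lay between 143 and 175 CPM in all 12 libraries. Since the labels do not say what the mutation changes, its level checks nothing. Wild type Hes1 deletion replicate 3 stood apart from the other 2 of its group: the chi-square per gene of the counts between it and them was 7.78 and 7.43, against 2.33 between those 2. Notch2 mutant Hes1 loxP replicates 2 and 3 were nearly as far from each other, at 7.21.

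Csf1 (ENSMUSG00000014599) lies on the minus strand of chromosome 3 at 107741048 to 107760469 (GRCm38). Its promoter is shown because Csf1 is the gene of the set whose RNA differed between genotypes. The line below gives the 250 bases before its start, chr3:107760470-107760719, 5′ to 3′ on the minus strand, from RefSeq on GRCm38.p6. Capitals mark the matches to 2 searched motifs, in this order: an NF-kappaB site and an N box, the kind of site that Hes repressors bind.

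Csf1 promoter: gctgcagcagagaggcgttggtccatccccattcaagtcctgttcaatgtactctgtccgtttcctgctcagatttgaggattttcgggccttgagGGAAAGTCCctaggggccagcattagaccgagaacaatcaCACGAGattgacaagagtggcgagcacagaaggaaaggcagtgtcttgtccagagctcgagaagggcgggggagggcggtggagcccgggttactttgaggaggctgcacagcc

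Both strands were searched, and the matches do not overlap. The NF-kappaB letters GGANTTTCC matched once, at base -154 counted from the start, and 1.07% of the 32851 mouse promoters of the same length hold them. The N box letters CACNAG matched once, at base -114, and 36.7% of promoters hold them. The RBPJ core TGGGAA, the site through which Notch signals act on promoters, had no match in this window, and 21.6% of promoters have one. Nor did CACGTG, which 6.02% hold, the AP-1 letters TGANTCA, which 6.75% hold, or the PU.1 letters GAGGAAGT, which 2.44% hold. Of the 6 genes, 4 have a promoter entry in that set, and the N box letters occur in all 4 of them.

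The receptor genes lie elsewhere. Csf1r (ENSMUSG00000024621) is at 61100598 to 61132149 on the plus strand of chromosome 18, and Csf3r (ENSMUSG00000028859) at 126024550 to 126044440 on the plus strand of chromosome 4. Csf2ra (ENSMUSG00000059326) is at 61223957 to 61228429 on the minus strand of chromosome 19. Csf2rb (ENSMUSG00000071713) at 78325752 to 78353847 on the plus strand, and Csf2rb2 (ENSMUSG00000071714) at 78282507 to 78305721 on the minus strand, are neighbours on chromosome 15. All positions are those of GENCODE M21 on GRCm38.

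The 6 genes spanned a wide range of abundance, and the order was the same in every library. Levels are compared between genes as CPM per kilobase of exon, averaged over the 12 libraries. Csf1r had 361, which placed it 101st among 13382 tested genes with an exon length. Csf2ra had 98.3, Csf2rb 39.4 and Csf2rb2 20.6. Csf3r followed with 2.98, and Csf1 was lowest with 0.794, the 11153rd. No library's value for a gene overlapped with any library's value for the next gene in that order. The RNA of the M-CSF receptor thus stood highest among the 6 and that of its ligand lowest, in cultures to which the ligand was added as protein.

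**Figure D1:**
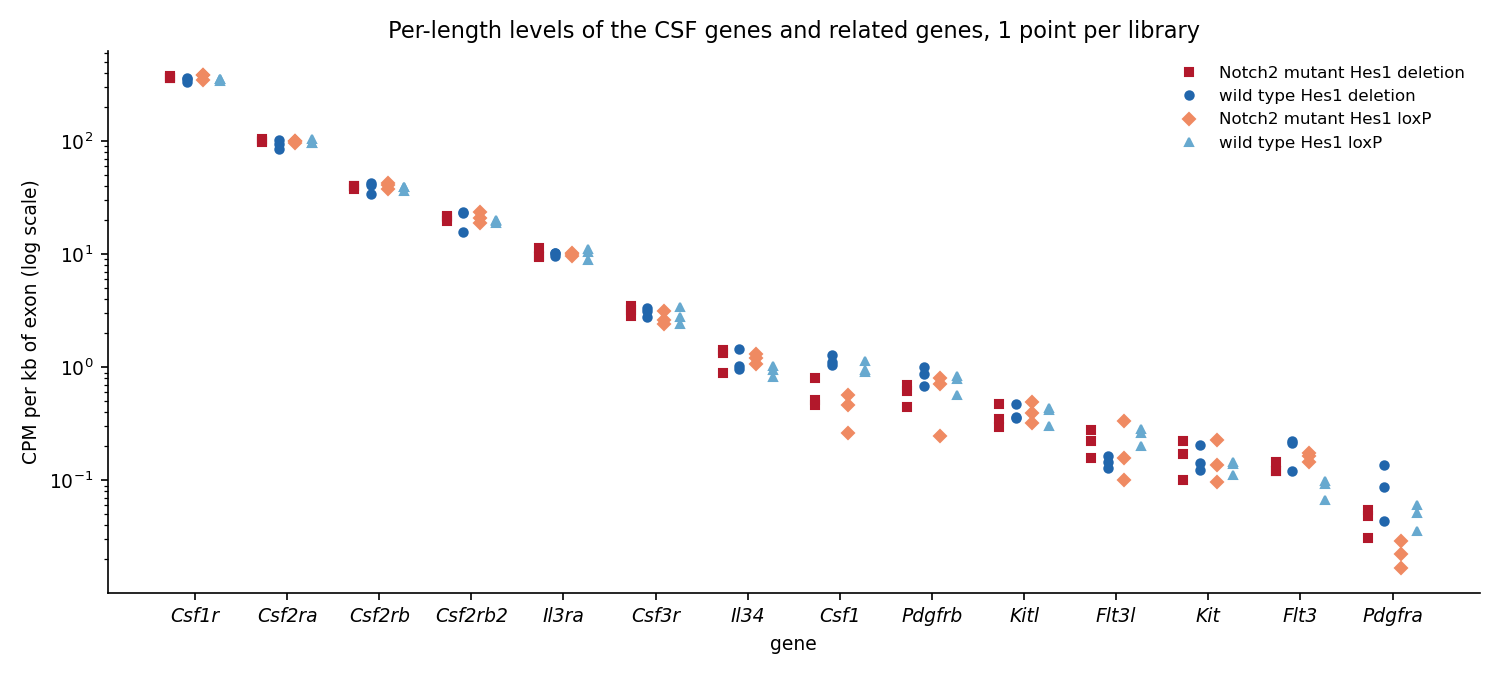
Levels of the 6 genes and of 8 related genes, as CPM per kilobase of exon on a log axis. Each point is 1 library, with colour and shape for the 4 groups. Csf1r averaged 361 and Csf1 0.794, and the 3 libraries of each Notch2 mutant group lie below those of the matching wild type group for Csf1.

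The plot of per-length levels places the related genes beside the 6. Other ligands were scarce: over all 12 libraries together Csf2 had 2 reads, Csf3 had 7, Il5 had 2 and Il3 had 0. A count of 0 over a group of 3 libraries allows a level of up to 0.0583 to 0.0635 CPM, depending on the group, and this covers counting error only. Il34 averaged 2.21 CPM, and Kitl and Flt3l, the ligands of the related receptor kinases Kit and Flt3, averaged 2.31 and 0.790 CPM. Among receptors, the IL-3 receptor alpha chain Il3ra averaged 29.9 CPM, while the IL-5 receptor alpha chain Il5ra had 4 reads in all. Pdgfrb, a relative of Csf1r known from stromal cells, averaged 3.78 CPM, Kit 1.35, Flt3 0.869 and Pdgfra 0.517 CPM.

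The first question was whether the Notch2 mutation changed these genes in cells with Hes1 loxP. Csf1 had 3.04, 1.40 and 2.47 CPM in the Notch2 mutant Hes1 loxP libraries, from 42, 25 and 44 reads, against 4.76, 5.03 and 6.01 CPM in the wild type Hes1 loxP libraries, from 66, 97 and 108 reads. Every mutant library was below every wild type library, as for 11.1% of all genes. The means were 2.30 ± 0.834 and 5.26 ± 0.657 CPM (SD, n = 3 each), a fold of 0.436 with a 95% confidence interval of 0.307 to 0.621. The log2 fold change of -1.20 ± 0.24 (SE) had an adjusted p of 0.0247 in edgeR's quasi-likelihood test with Benjamini-Hochberg adjustment over 13403 genes. Csf1 was the 1 gene of the 6 that passed the threshold of 0.05, which 0.776% of all genes tested passed in either direction and 0.634% as lower. Fewer cells that express Csf1 and less Csf1 RNA per cell cannot be told apart in such bulk samples.

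The same comparison in cells with Hes1 deleted gave a fold in the same direction that did not pass. Csf1 had 4.25, 2.47 and 2.74 CPM in the Notch2 mutant Hes1 deletion libraries, against 5.50, 5.88 and 6.77 CPM in the wild type Hes1 deletion libraries. The groups again did not overlap, with the mutant lower, as for 7.48% of all genes in this comparison, and replicate 1 was the highest of the mutant libraries. The means were 3.15 ± 0.962 and 6.05 ± 0.652 CPM (SD, n = 3 each), a fold of 0.523 with a 95% confidence interval of 0.375 to 0.730. The log2 fold change was -0.93 ± 0.23 (SE), with an unadjusted p of 0.000709 and an adjusted p of 0.349 in edgeR's quasi-likelihood test. Of the 6 genes 0 passed, in a comparison where 0.0149% of all genes did, and the unadjusted p was under 0.05 for Csf1 alone among the 6.

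The 2 differences were compared directly by the interaction term, which was 0.26 ± 0.34 (SE) for Csf1 with a 95% confidence interval of -0.44 to 0.97 and an adjusted p of 0.999 in edgeR. No gene of the 6 passed that test, which 0% of all genes passed. Of 13403 genes 506 had an unadjusted p under 0.05 in edgeR. That share is below the 0.05 expected if no gene had an interaction. With the effect averaged over both Hes1 states, a contrast added after the data had been seen, Csf1 had 2.73 CPM on average in the 6 Notch2 mutant libraries and 5.66 CPM in the 6 wild type libraries. This log2 fold change of -1.06 ± 0.17 (SE) had an adjusted p of 0.0035 in edgeR. Of all genes 1.89% passed in this contrast, and 0.94% had all 6 mutant libraries below all 6 wild type ones, as Csf1 did.

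**Figure D2:**
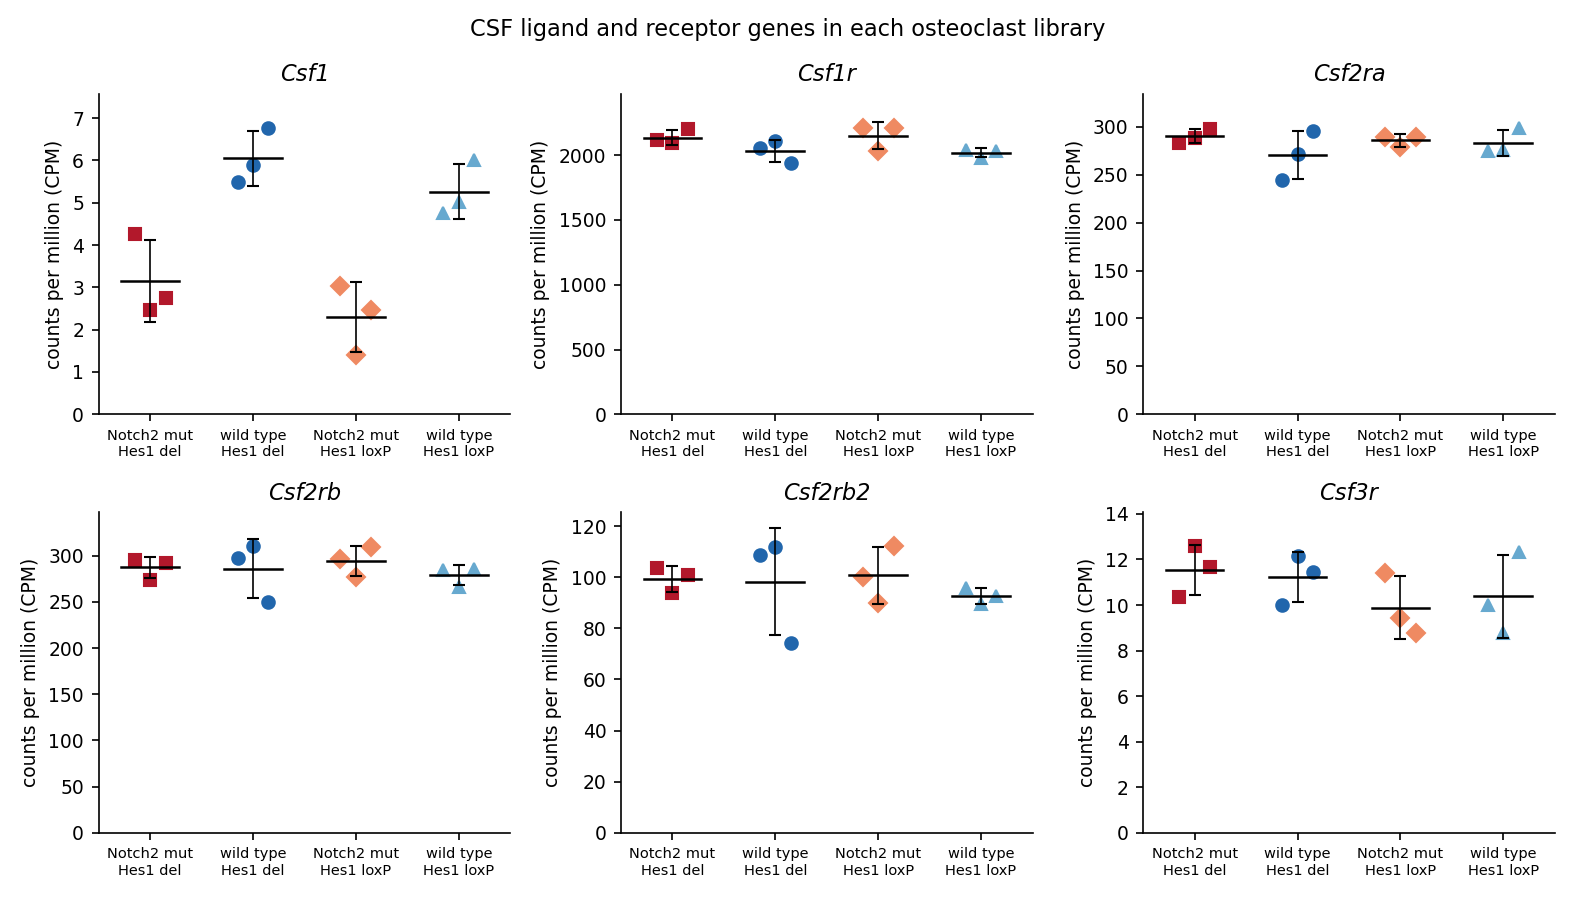
CPM of the 6 genes in each library, with the 4 groups along the horizontal axis. Points are libraries, in replicate order from left to right within a group. The black line is the group mean and the bar its SD (n = 3). Csf1 averaged 3.15 and 6.05 CPM in Notch2 mutant and wild type cells with Hes1 deleted, and 2.30 and 5.26 CPM with Hes1 loxP. The other 5 genes overlap between the groups.

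In the plot of CPM by library, Csf1 separates the genotypes and the receptors do not. Markers of stromal cells moved with it. The list of 15 stromal markers, led by Col1a1, Col1a2 and Sparc, summed to 216, 125 and 265 CPM in the Notch2 mutant Hes1 loxP libraries, against 321, 290.0 and 269 CPM in the wild type Hes1 loxP libraries. With Hes1 deleted the sums were 313, 248 and 223 CPM in Notch2 mutant libraries, against 370.3, 376 and 354 CPM in wild type libraries. The mutant libraries were lower in both Hes1 states, without overlap. Col1a1, the collagen gene that leads the list, was between 50.3 and 149 CPM, while Lum was at 0 in 9 libraries and Cxcl12 in 1. In the Hes1 loxP comparison 12 of the 13 stromal markers tested had a negative log2 fold change, with a median of -0.54 against 0.00 over all genes. Of them 1 passed, where 0.776% of all genes tested did: Cxcl12, a chemokine of marrow stroma, with a log2 fold change of -2.98 ± 0.68 (SE) and an adjusted p of 0.0493 in edgeR.

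**Figure D3:**
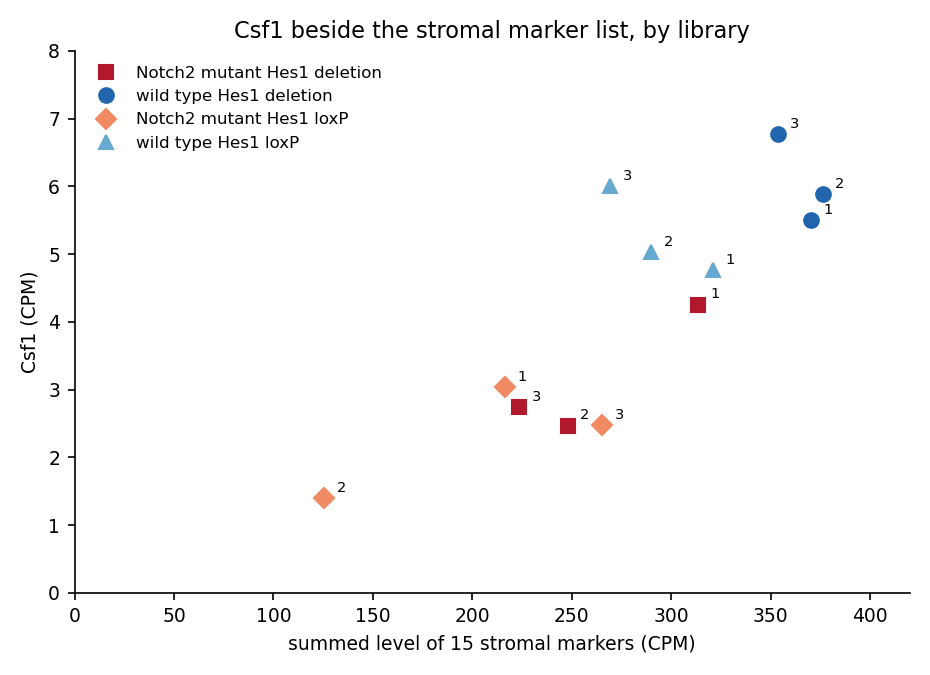
Csf1 (vertical axis, CPM) against the summed level of the 15 stromal markers (horizontal axis, CPM) in each of the 12 libraries, with replicate numbers beside the points. Within each Hes1 state both are lower in the Notch2 mutant libraries. Libraries with near stromal sums differ in Csf1 to unlike degrees. Notch2 mutant Hes1 loxP replicate 3, at 265 CPM on the horizontal axis, has 2.47 CPM of Csf1. Wild type Hes1 loxP replicate 3, at 269 CPM, has 6.01 CPM. Notch2 mutant Hes1 deletion replicate 1, at 313 CPM, has 4.25 CPM, and wild type Hes1 loxP replicate 1, at 321 CPM, has 4.76 CPM.

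The plot of Csf1 against the stromal sum shows both patterns. Csf1 per 1000 CPM of stromal markers was 14.0, 11.1 and 9.32 in the Notch2 mutant Hes1 loxP libraries, against 14.8, 17.3 and 22.3 in the wild type Hes1 loxP libraries. With Hes1 deleted it was 13.6, 9.95 and 12.3 in Notch2 mutant libraries, against 14.8, 15.6 and 19.1 in wild type libraries. The groups did not overlap, though the highest mutant value and the lowest wild type value lay close together; this ratio was not tested. With the mean log2 level of the stromal markers as a covariate, the log2 fold change of Csf1 in Hes1 loxP cells was -0.64 with an adjusted p of 0.355 in edgeR, and that of the contrast over both Hes1 states was -0.51 with an adjusted p of 0.41. In the same fit 2 genes passed in the Hes1 loxP comparison over the whole table, against 104 without the covariate. Since the stromal sum differs between the genotypes, the parts of genotype and stromal level in the Csf1 difference cannot be told apart.

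The 5 genes most like Csf1 across the 12 libraries, by Pearson's r of log2 CPM among 10369 genes, were Ccn2, with 0.964, Acta2, with 0.950, Timp1, with 0.941, Fkbp10, with 0.928, and Col12a1, with 0.920. Ccn2 encodes a matricellular growth factor, Acta2 smooth muscle actin, Timp1 a metalloproteinase inhibitor, Fkbp10 a collagen chaperone and Col12a1 a collagen chain. These coefficients describe libraries of 4 groups, which share the genotype difference, and carry no test. Csf1 lies 9.59 Mb from Notch2 on chromosome 3. Of the 28 tested genes within 1 Mb of Csf1, 0 passed in any of the 4 comparisons of groups, and in the Hes1 loxP comparison their log2 fold changes ran from -0.42 to 0.39.

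The call on Csf1 in Hes1 loxP cells held without Notch2 mutant replicate 1 but not without any other of its 6 libraries. It held in 14 of 20 other settings, with log2 fold changes from -1.42 to -0.64 over all of them. Besides the stromal covariate, the call was lost without wild type replicate 1 (adjusted p of 0.0568 in edgeR), wild type replicate 2 (0.0691), wild type replicate 3 (0.066), Notch2 mutant replicate 2 (0.08, with a log2 fold change of -0.92) or Notch2 mutant replicate 3 (0.0713). Averaged over both Hes1 states the call held without each of the 12 libraries in turn, with adjusted p from 0.00254 to 0.0167 in edgeR.

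**Figure D4:**
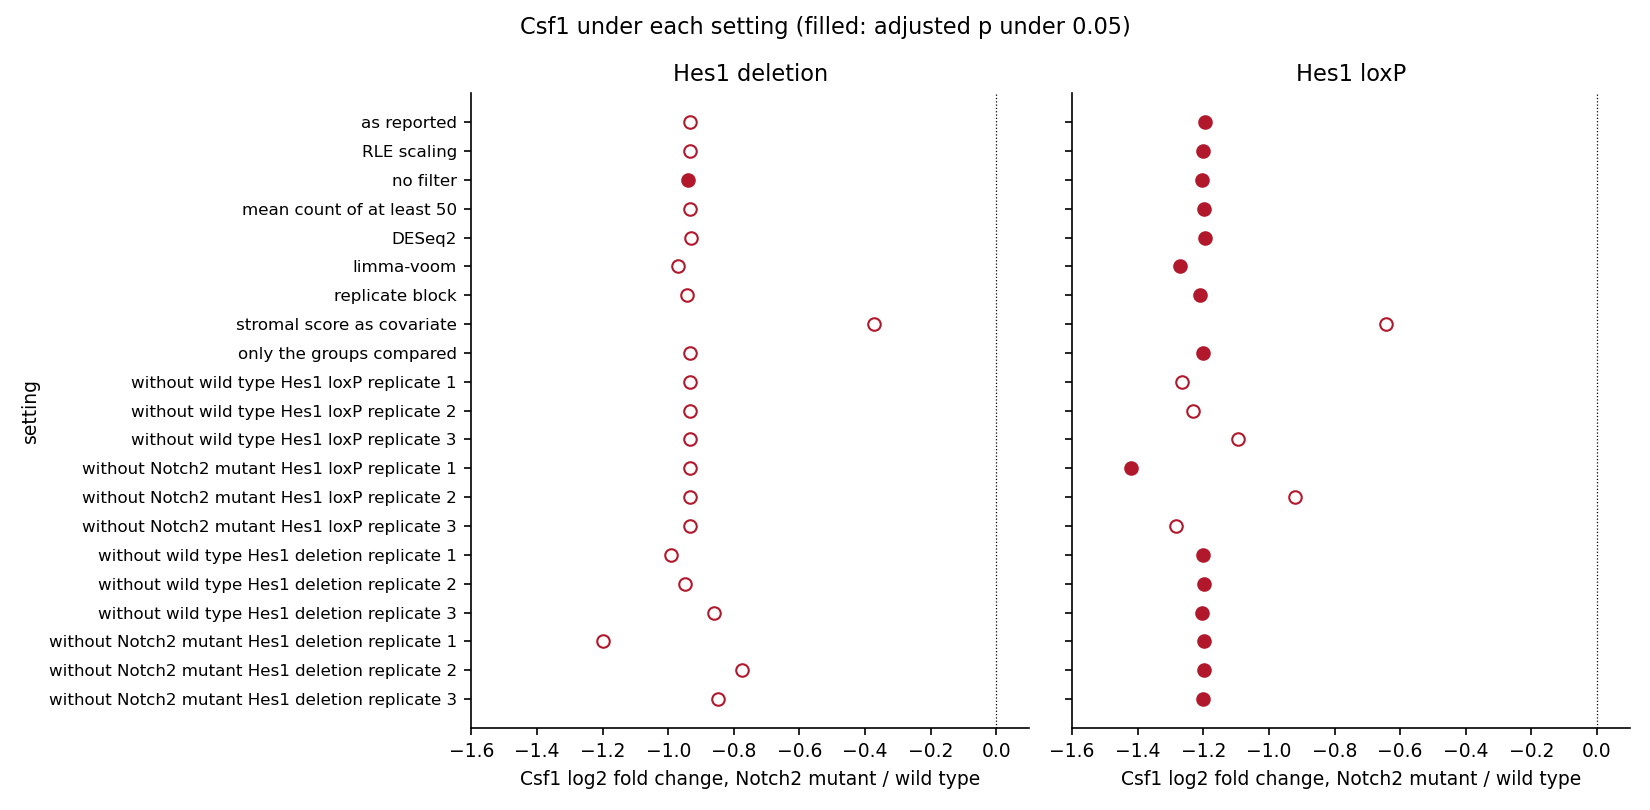
Log2 fold change of Csf1 in Notch2 mutant over wild type libraries (horizontal axis) under each setting (rows), with Hes1 deletion on the left and Hes1 loxP on the right. Filled points have an adjusted p under 0.05. All points lie below 0, and the stromal covariate gives the ones nearest to 0, -0.37 and -0.64.

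The plot of settings shows the same for Hes1 deletion, where 1 of 20 settings, the one without a filter on low counts, passed. Il34, the other ligand of Csf1r, did not pass in either Notch2 comparison. It had 2.39, 2.57 and 2.08 CPM in the Notch2 mutant Hes1 loxP libraries, against 1.87, 2.02 and 1.61 CPM in the wild type Hes1 loxP libraries. The mutant libraries were all higher, but the log2 fold change of 0.37 ± 0.25 (SE) had an adjusted p of 0.533 in edgeR, and 7.2% of all genes were higher without overlap in this comparison. With Hes1 deleted Il34 had 2.81, 1.74 and 2.62 CPM in Notch2 mutant libraries and 2.03, 2.86 and 1.88 CPM in wild type libraries, which overlap. The ratio of Csf1 to Il34, each per kilobase, was 0.372 ± 0.148 in Notch2 mutant and 1.08 ± 0.260 in wild type libraries with Hes1 loxP, and 0.491 ± 0.0908 in Notch2 mutant and 1.04 ± 0.287 in wild type libraries with Hes1 deleted (SD, n = 3 each; not tested). Per kilobase, Csf1 was below Il34 in all 6 Notch2 mutant libraries, with ratios from 0.202 to 0.561, while the 6 wild type libraries had ratios from 0.763 to 1.38.

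Csf1r, the receptor, was abundant and even. It had 2211, 2032 and 2211 CPM in the Notch2 mutant Hes1 loxP libraries, against 2042, 1980.5 and 2036 CPM in the wild type Hes1 loxP libraries. Mutant replicate 2 lay inside the wild type range, so the groups overlap. The log2 fold change was 0.12 ± 0.05 (SE), with a 95% confidence interval of 0.01 to 0.23, an unadjusted p of 0.0389 and an adjusted p of 0.317 in edgeR. With Hes1 deleted Csf1r had 2114, 2094 and 2201 CPM in Notch2 mutant libraries, against 2053, 2109 and 1939 CPM in wild type libraries, a log2 fold change of 0.08 ± 0.05 (SE) that did not pass. Over both Hes1 states the value of 0.10 ± 0.04 (SE) had an adjusted p of 0.171 in edgeR. In the Hes1 loxP comparison the upper end of the confidence interval, 0.23, is a fold of 1.17, and larger rises of Csf1r in those cells lie outside it. Exons of Csf1r share 873 bases, 15.1% of their length, with exons of Hmgxb3 on the opposite strand, and no source used here gives the strand setting of the counting, so some of these reads may belong to that gene.

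Per kilobase, Csf1r exceeded Csf1 by 666, 1332 and 817 times in the Notch2 mutant Hes1 loxP libraries, against 393, 360.3 and 310 times in the wild type Hes1 loxP libraries. With Hes1 deleted the ratios were 455, 776 and 734 in Notch2 mutant libraries, against 342, 328 and 262 in wild type libraries. The ratio was higher in all mutant libraries than in all wild type libraries, and it was not tested. With Csf1r even across the libraries, it restates the Csf1 difference given above. Osteoclast and macrophage markers were not the same in the groups: in Hes1 loxP cells the osteoclast list summed to between 45900 and 50598 CPM in Notch2 mutant and between 39131 and 42077 CPM in wild type libraries. Of the osteoclast list 1 gene passed there, Ocstamp, as higher, with a log2 fold change of 0.25 ± 0.06 (SE) and an adjusted p of 0.0493 in edgeR. The macrophage list of 13 genes summed to between 3012 and 3309 CPM in Notch2 mutant and between 3367 and 3558 CPM in wild type libraries. Of its genes 4 passed as lower, Msr1, Fcgr1, Adgre1 and Emilin2, where 0.634% of all genes tested passed as lower. With Hes1 deleted the osteoclast list summed to between 37784 and 41952 CPM in Notch2 mutant and between 31513 and 37736 CPM in wild type libraries. These sums hold Ctsk, which averaged 5048 CPM with Hes1 deleted and 10631 CPM with Hes1 loxP in Notch2 mutant libraries. In wild type libraries it averaged 4586 and 9026 CPM. Of the 11 osteoclast genes Ctsk alone passed in each Hes1 comparison (adjusted p 8.89e-08 in mutant and 4.84e-07 in wild type cells, edgeR), where 0.0373% of all genes passed. The macrophage sums overlapped between the genotypes with Hes1 deleted, with 3253 to 3427 CPM in Notch2 mutant and 3290.1 to 3430.3 CPM in wild type libraries. Of the 13 macrophage genes 0 passed in that comparison, where 0.0149% of all genes did. The part of these differences in the level of Csf1r was not tested. The genes most like Csf1r across the 12 libraries were Tmem86a, with r of 0.960, Sord, also with 0.960, Hexa, with 0.960, Ptges, with 0.955, and Mfsd12, with 0.953.

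**Figure D5:**
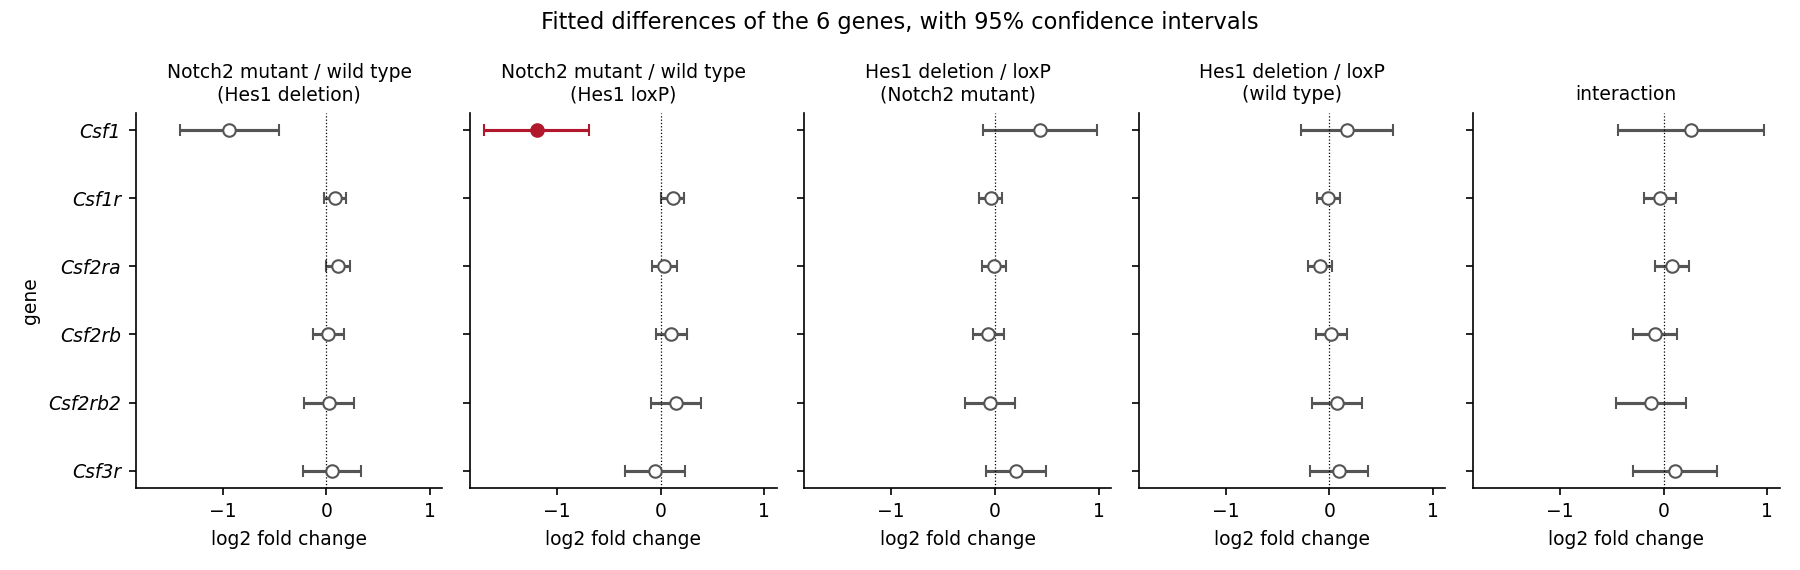
Log2 fold changes of the 6 genes in the 4 comparisons of groups and the interaction (panels), from edgeR, with 95% confidence intervals as bars. The filled red point passed an adjusted p of 0.05, and the open points did not. Csf1 in Notch2 mutant over wild type cells with Hes1 loxP, at -1.20, is the 1 filled point.

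The GM-CSF receptor chains did not pass in either Notch2 comparison, as the plot of fold changes shows. Csf2ra, which binds GM-CSF, averaged 286 ± 6.34 CPM in Notch2 mutant and 283 ± 13.6 CPM in wild type libraries with Hes1 loxP, and 290.0 ± 7.21 CPM in Notch2 mutant and 270.5 ± 25.1 CPM in wild type libraries with Hes1 deleted (SD, n = 3 each). Its log2 fold changes were 0.04 ± 0.06 (SE) in Hes1 loxP cells and 0.11 ± 0.06 (SE) with Hes1 deleted, with adjusted p of 0.824 and 0.754 in edgeR. In the wild type Hes1 deletion group the 3 libraries were spread over 245, 271 and 295 CPM, the widest spread of this gene. Csf2rb, the common beta chain, averaged 294 ± 16.6 CPM in Notch2 mutant and 279 ± 11.01 CPM in wild type libraries with Hes1 loxP, a log2 fold change of 0.10 ± 0.07 (SE). With Hes1 deleted it averaged 287 ± 11.4 CPM in Notch2 mutant and 286 ± 31.8 CPM in wild type libraries, a log2 fold change of 0.02 ± 0.07 (SE).

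Csf2rb2, the beta chain of the mouse IL-3 receptor, had 100.1, 90.1 and 112 CPM in the Notch2 mutant Hes1 loxP libraries, against 95.9, 89.5 and 92.7 CPM in the wild type Hes1 loxP libraries, which overlap. With Hes1 deleted it had 104, 93.7 and 101 CPM in Notch2 mutant libraries, against 109, 112 and 74.3 CPM in wild type libraries. The low library is again wild type Hes1 deletion replicate 3, which also has the lowest Csf2rb of all 12 libraries, 249.8 CPM, and the lowest Csf1r, 1939 CPM. The log2 fold changes were 0.15 ± 0.11 (SE) with Hes1 loxP and 0.02 ± 0.11 (SE) with Hes1 deleted, and the value with Hes1 deleted was -0.15 without that library. Across the 12 libraries Csf2rb and Csf2rb2 had a Pearson's r of 0.966 in log2 CPM, and each was the gene most like the other among 10369. The genes that came next were, in order, Txnip, Tyrobp, Ndrg1 and Gpi1 for Csf2rb, and Pgk1, Ndrg1, Bnip3 and Gpi1 for Csf2rb2. Against Csf2ra, with which Csf2rb forms the GM-CSF receptor, the r of Csf2rb was -0.03.

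The likeness of the beta chains has to be read with their sequences, which are nearly the same. Their coding sequences of 2688 bases in Csf2rb and 2634 bases in Csf2rb2 are 95.2% identical over 2628 aligned bases, with a longest identical run of 242 bases. The first 60 coding bases are shown because they are almost identical, and the 60 aligned bases within 1 exon that differ most because they tell the genes apart. Sequences are from GENCODE M21 transcripts, 5′ to 3′ on each gene's own strand, and capitals mark bases that differ, 1 in the first pair and 13 in the second.

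Csf2rb, chr15:78335207-78335266, plus strand: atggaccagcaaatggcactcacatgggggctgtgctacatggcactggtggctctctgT
Csf2rb2, chr15:78298170-78298229, minus strand: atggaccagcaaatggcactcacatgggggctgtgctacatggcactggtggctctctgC
Csf2rb, chr15:78338893-78338952, plus strand: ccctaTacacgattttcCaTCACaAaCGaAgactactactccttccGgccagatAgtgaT
Csf2rb2, chr15:78294379-78294438, minus strand: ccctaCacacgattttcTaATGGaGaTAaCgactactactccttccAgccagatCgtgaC

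Of all words of 75 bases, the read length, in the transcripts of Csf2rb, 7.15% also occur in those of Csf2rb2, and 10.6% of the words of Csf2rb2 occur in those of Csf2rb. The level of each beta chain is therefore uncertain by the reads that the authors' counting could not place. The share of Csf2rb2 in the reads of both was between 24.5 and 26.8% in 11 libraries and 22.9% in wild type Hes1 deletion replicate 3. By group it was 25.7 ± 0.245% in Notch2 mutant and 25.4 ± 2.15% in wild type libraries with Hes1 deleted, and 25.4 ± 1.03% in Notch2 mutant and 25.0 ± 0.416% in wild type libraries with Hes1 loxP (SD, n = 3 each).

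Csf3r, the G-CSF receptor, had 11.4, 9.44 and 8.77 CPM in the Notch2 mutant Hes1 loxP libraries, against 10.0, 8.76 and 12.3 CPM in the wild type Hes1 loxP libraries. With Hes1 deleted it had 10.4, 12.6 and 11.7 CPM in Notch2 mutant libraries, against 10.0, 12.2 and 11.5 CPM in wild type libraries. The groups overlap in both Hes1 states, and the log2 fold changes of -0.06 ± 0.14 (SE) and 0.06 ± 0.13 (SE) have 95% confidence intervals of -0.34 to 0.23 and -0.23 to 0.34. Neutrophil markers, led by S100a9 and Ngp, were present beside it: the list of 14 summed to between 232 and 301 CPM in Notch2 mutant and between 299.7 and 383 CPM in wild type libraries with Hes1 loxP. Mmp8, a neutrophil collagenase, passed as lower in that comparison, with a log2 fold change of -0.46 ± 0.10 (SE) and an adjusted p of 0.0384 in edgeR. The part of neutrophil RNA in Csf3r was not tested. Among the 5 genes most like Csf3r was Zfp511, with r of 0.835, and none of the 5 was a neutrophil marker.

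The second question was whether deleting Hes1 changed the 6 genes. In wild type cells 0 of the 6 passed, in a comparison that 0.0373% of all genes passed. Csf1 averaged 6.05 CPM with Hes1 deleted and 5.26 CPM with Hes1 loxP, a log2 fold change of 0.17 ± 0.21 (SE) with a 95% confidence interval of -0.27 to 0.62. The other 5 had log2 fold changes from -0.09, for Csf2ra, to 0.09, for Csf3r. In Notch2 mutant cells 0 of the 6 passed as well, where again 0.0373% of all genes did. Csf1 averaged 3.15 CPM with Hes1 deleted and 2.30 CPM with Hes1 loxP, a log2 fold change of 0.44 ± 0.26 (SE) with a 95% confidence interval of -0.11 to 0.99 and an adjusted p of 0.977 in edgeR. The other 5 ran from -0.07, for Csf2rb, to 0.20, for Csf3r. Stromal markers shifted too. In wild type cells 13 of 13 tested had positive log2 fold changes, with a median of 0.29. Notch2 mutant cells had 11 of 13 positive, with a median of 0.38. The stromal sums did not overlap between Hes1 states in the wild type but did in the mutant, and 0 markers passed. With the stromal covariate Csf1 had -0.17 in the wild type and 0.11 in the mutant. Beyond that fit, the part of stromal level in these Csf1 values was not tested. Each Hes1 comparison shares its groups with the Notch2 comparisons, so their values are not independent of those above. The groups overlapped for each of the 6 genes in both, while 10.9% of all genes in wild type cells and 11% in Notch2 mutant cells did not overlap. Averaged over both genotypes, a contrast also added after the data had been seen, Csf1 had 4.60 CPM with Hes1 deleted and 3.78 CPM with Hes1 loxP, a log2 fold change of 0.31 ± 0.17 (SE) with an adjusted p of 0.775 in edgeR, where 0.0821% of all genes passed.

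The intervals set how large a change these data leave possible. For Csf1r the 95% confidence intervals of both Hes1 comparisons lie between -0.15 and 0.10, and for Csf2ra between -0.20 and 0.11. For Csf1, with 25 to 108 reads a library, they reach 0.99, so a fold of up to 1.98 with Hes1 deletion in Notch2 mutant cells lies inside the interval.

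Related ligands and receptors did not pass in any of the 4 comparisons or the interaction. Of the 13 genes, 8 were tested, 3 ligands and 5 receptors. In the Notch2 mutant against wild type comparison with Hes1 loxP, Flt3, the receptor of dendritic cell precursors, came nearest. It had 1.01, 0.893 and 1.07 CPM in Notch2 mutant libraries, against 0.577, 0.415 and 0.612 CPM in wild type libraries. The groups did not overlap, on 8 to 19 reads a library, with the mutant higher, as for 7.2% of all genes, and the log2 fold change of 0.92 ± 0.35 (SE) had an adjusted p of 0.233 in edgeR. With Hes1 deleted Flt3 overlapped between the genotypes, with a log2 fold change of -0.50 ± 0.32 (SE). In wild type cells it was higher with Hes1 deleted than with Hes1 loxP, without overlap, with 1.09 ± 0.34 (SE) and an adjusted p of 0.552 in edgeR. Of the 9 tested dendritic cell markers, a list that holds Flt3 itself, 9 had positive log2 fold changes in Notch2 mutant over wild type cells with Hes1 loxP, with a median of 0.45, and 0 passed. Their part in the level of Flt3 was not tested. In the Hes1 loxP comparison of the genotypes the other tested genes of the 2 lists ran from -1.13, for Pdgfra, to 0.37, for Il34, and Il3ra, the alpha chain that pairs with both beta chains, was at 0.01.

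Downstream of the receptors, few genes passed. None of 27 genes that carry signals below Csf1r, among them the adaptor Grb2 and the kinase Src, passed in Hes1 loxP cells, where their median log2 fold change was 0.02 in Notch2 mutant over wild type, against 0.00 over all genes. Src came nearest with 0.13 ± 0.05 (SE) and an adjusted p of 0.183 in edgeR, followed by the ubiquitin ligase gene Cbl, with -0.20 ± 0.07 (SE). Of 16 genes of the JAK-STAT pathway below the GM-CSF and G-CSF receptors, 0 passed, with a median of -0.08. Socs2, a feedback inhibitor of cytokine receptors, had -0.40 ± 0.13 (SE) with an adjusted p of 0.149 in edgeR.

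Of 16 myeloid transcription factor genes 2 passed, both lower in Notch2 mutant cells with Hes1 loxP, where 0.776% of all genes passed and 0.634% as lower. The median of the list was -0.11. Cebpb, a factor of monocytes and granulocytes, averaged 51.5 CPM in Notch2 mutant and 71.2 CPM in wild type libraries, a log2 fold change of -0.44 ± 0.09 (SE) with an adjusted p of 0.0243 in edgeR. Maf, a macrophage factor, averaged 111 CPM in Notch2 mutant and 147 CPM in wild type libraries, a log2 fold change of -0.38 ± 0.08 (SE) with an adjusted p of 0.0461. Neither passed with Hes1 deleted, and the difference between the Hes1 states did not pass for either, with an adjusted p of 0.999 in edgeR. Among 8 genes of the shedding machinery, which cuts Csf1r and cell-bound M-CSF from the cell surface, 1 passed, against the same 0.776% of all genes. Timp3, an inhibitor of the sheddase Adam17, averaged 3.40 CPM in Notch2 mutant and 8.53 CPM in wild type libraries with Hes1 loxP, a log2 fold change of -1.29 ± 0.23 (SE) with an adjusted p of 0.0136 in edgeR.

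Timp3 also passed with Hes1 deleted, as 0.0149% of all genes did, where it averaged 4.64 CPM in Notch2 mutant and 11.7 CPM in wild type libraries, a log2 fold change of -1.33 ± 0.21 (SE) with an adjusted p of 0.0452. With the stromal covariate the calls on Timp3, Cebpb and Maf in Hes1 loxP cells were lost. In that fit Timp3 had a log2 fold change of -1.03 with an adjusted p of 0.227 in edgeR, Cebpb -0.39 with 0.241 and Maf -0.33 with 0.271. With Hes1 deleted Timp3 had -1.07 with 0.728. Adam17 itself and the gamma-secretase genes Psen2 and Ncstn did not pass in either comparison. With Hes1 deleted the call on Timp3 held in 10 of 20 other settings, and in Hes1 loxP cells in 16 of 20. The calls on Cebpb and Maf held in 15 and 11 of 20. In the 2 Hes1 comparisons and the interaction, 0 genes of these 4 lists passed.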

How the data were processed

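Stranded mRNA libraries were sequenced in 1 pool with paired reads of 75 bp, per the labels' protocols. The deposited values are raw counts per gene, 1 file a library. The submitters' processing notes name the build GRCm38 and the tools HISAT2, HTSeq, DESeq2, Picard and SAMtools, while no source used here gives their versions, the annotation or the strand setting. The 5 summary rows of each file, 15.8 to 19.0% of its total, were left out. Names came from GENCODE M21, which named 52133 of 55414 IDs.

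The members and lists were chosen with earlier results of these data known. CPM is the count per 1000000 gene counts, and per-length values divide by merged exon length. All 12 libraries were fitted with edgeR 4.0.16 (R 4.3.3): TMM scaling, a minimum count of 10 and total of 15, quasi-likelihood tests, Benjamini-Hochberg adjustment over 13403 genes and a threshold of 0.05. The test was checked on simulated data. No 2 libraries of a group agreed within sampling noise (chi-square per gene 2.33 to 7.78). Whether libraries of the same replicate number were paired was not settled, and the main fit did not pair them. Pathway genes were named if they passed, else the up to 3 with the smallest p; marker lists by their highest genes; some genes named by these rules are not reported here. Alternatives used limma 3.58.1, DESeq2 1.42.0, RLE scaling, other filters, the replicate block, a stromal covariate and leaving out each library. The 2 contrasts averaged over the other factor were added after the data had been seen. Single-cell data, which the design text mentions, were not used here.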

Additional observations from a re-analysis of the deposited data

How the results depend on the processing

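With a filter of at least 1 count, RLE scaling, a mean count of at least 50, DESeq2, limma-voom, the replicate block or a fit of only the groups compared, the number of the 6 genes that passed changed in 1 case: without the filter it was 1, Csf1, in the Notch2 comparison with Hes1 deletion. The stromal covariate took it to 0 in Hes1 loxP cells and to 0 in the Notch2 contrast over both Hes1 states. Leaving out 1 library each gave 0 to 1 in Hes1 loxP cells. Whether replicate numbers pair the libraries was not settled. Of 18 same-numbered pairs 1 had a correlation of deviations over 0.1 (range -0.0897 to 0.107). Yet 8 of 12 libraries correlated best with their own number. With the replicate block Csf1 had -1.21 (adjusted p 0.0187 in edgeR) with Hes1 loxP, and no call on the 6 genes changed. Over all genes the block called 148 in that comparison, against 104 without it. In the Notch2 contrast over both Hes1 states it called 325, against 253. Uncalled log2 fold changes near 0 changed sign. The stromal covariate gave -0.17 for Csf1, -0.029 for Csf2rb and -0.014 for Csf2rb2 in Hes1 deletion against loxP in wild type cells, and -0.030 for Csf1 in the Hes1 contrast over both genotypes. Leaving out 1 library each gave, in the Notch2 comparison with Hes1 loxP, -0.17 to 0.091 for Csf3r, and with Hes1 deletion, -0.015 to 0.12 for Csf3r, -0.079 to 0.086 for Csf2rb and -0.15 to 0.13 for Csf2rb2. In the Hes1 comparison it gave, in wild type cells, -0.049 to 0.11 for Csf2rb, -0.036 to 0.24 for Csf2rb2, -0.020 to 0.24 for Csf3r and -0.040 to 0.031 for Csf1r, and in mutant cells -0.032 to 0.011 for Csf2ra and -0.13 to 0.045 for Csf2rb2. For the interaction it gave -0.034 to 0.23 for Csf3r, -0.013 to 0.49 for Csf1 and -0.074 to 0.0029 for Csf1r. Over all genes, the Notch2 comparison with Hes1 loxP called 104, against 657 without a filter, 248 by DESeq2, 2 with the covariate and 26 to 289 without 1 library. With Hes1 deletion it called 2, against 138 without a filter, 1 with a mean count of at least 50, 1 by limma-voom, 0 with the covariate and 0 to 5 without 1 library. The Hes1 comparison called 5 in wild type cells, against 135, 2 with the mean count, 8 by DESeq2 and 3 to 26 without 1 library, and 5 in mutant cells, against 110, 2, 8, 3 by limma-voom, 3 with the covariate and 3 to 6. The interaction called 0, against 63 without a filter and 0 to 12. The Notch2 contrast over both states called 253, against 853 without a filter, 431 by DESeq2, 1 with the covariate and 63 to 319; the Hes1 contrast called 11, against 184, 24, 3 and 6 to 16, and 6 with the mean count. The cause of these shifts was not tested. Levels per length kept within 1 SD with each library left out and with TMM library sizes; TPM differs by its scale. A fit of only the groups compared does not exist for the contrasts that use all 4 groups. Depth limits the scarce genes: Csf1 had 25 to 108 reads a library, Il34 26 to 52, Flt3 8 to 24 and Pdgfra 3 to 22.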
